A study of Mus musculus with 8 samples.

Results

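Bcl2 and its relatives decide whether a B cell lives or dies, and 10 of these genes were followed here through the hours between activation and the first division: the survival genes Bcl2, Bcl2l1, Mcl1, Bcl2a1b and Bcl2a1d, the BH3-only death genes Bcl2l11, Bbc3 and Pmaip1, and the effectors Bax and Bak1. They were picked by name from the 20807 protein-coding genes placed on the autosomes in GENCODE vM21, by a rule that uses no measured value, although earlier results of these data were known when they were picked. For each gene the 50 kb bin that holds its start was taken with the 2 Mb on either side. The measurements were the contacts of that bin, their partner bins, its compartment and its insulation. Some bins hold other starts too: Tpx2 with Bcl2l1, Adamtsl4 with Mcl1, Gm29094 with Bcl2a1b, Mthfsl with Bcl2a1d and Ggnbp1 with Bak1. Bax shares its bin with Dhdh, Ftl1, Gm45808 and Tulp2. A value therefore belongs to the bin and cannot be assigned to 1 start within it.

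The contacts came from in situ Hi-C. Fixed nuclei are digested with the enzyme MboI, ends that lie close together are joined, and every sequenced junction counts as a contact of both its ends. All cells were splenic B cells of mice described as male, of 6 to 12 weeks and on a C57BL/6 Pep3b background, isolated as naive cells by negative selection, stained with CellTrace Violet (CTV, a dye that is diluted at each division) and cultured with 25 µg/ml lipopolysaccharide (LPS), a bacterial product that activates B cells. There were 4 groups of 2 biological replicates: cells at 3 h, cells at 10 h, undivided cells at 33 h (imminent division) and undivided cells at 33 h that had not entered S phase (pre-S). The activated cells were sorted as CD69+ and CTV-highest, and the pre-S cells came from FUCCI mice, which carry fluorescent reporters of the cell cycle phase, and were further gated as mAG- mKO2-high. Strain, reporter and gate therefore cannot be told apart from cell cycle stage when pre-S is compared with any other group. The naive cells before activation were not analysed here, so the 3 h group is the earliest point.

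The proteins of this family act on the outer membrane of the mitochondrion. Bax and Bak1 form the pores that release cytochrome c and start the caspases, the survival proteins hold them back, and the BH3-only proteins bind the survival proteins or the effectors when a cell is stressed or deprived of signals. In B cells, Bcl2l11 (Bim) removes autoreactive and unneeded cells, Mcl1 is required for survival, and the A1 proteins encoded by the Bcl2a1 copies are induced by activating signals. Hi-C measures the folding of these loci and not their transcripts, so no value below is a level of expression.

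The Bcl2a1 genes are recent copies on chromosome 9, and their similarity bears on how surely reads can be placed there. The RefSeq promoters (GRCm38.p6, 250 bases before to 50 after the annotated start, written along the gene's own strand) of both copies among the 10 genes are shown because each holds a single MboI site, GATC in capitals, at which these loci could be cut. The Bcl2a1d promoter lies at chr9:88731801-88732100 on the minus strand and the Bcl2a1b promoter at chr9:89199023-89199322 on the plus strand.
Bcl2a1d: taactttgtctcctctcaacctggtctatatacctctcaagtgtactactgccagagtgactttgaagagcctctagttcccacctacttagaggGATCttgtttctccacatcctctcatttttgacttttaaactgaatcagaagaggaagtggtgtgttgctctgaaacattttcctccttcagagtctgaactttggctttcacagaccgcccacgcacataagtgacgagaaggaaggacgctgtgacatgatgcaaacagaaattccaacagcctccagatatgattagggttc
Bcl2a1b: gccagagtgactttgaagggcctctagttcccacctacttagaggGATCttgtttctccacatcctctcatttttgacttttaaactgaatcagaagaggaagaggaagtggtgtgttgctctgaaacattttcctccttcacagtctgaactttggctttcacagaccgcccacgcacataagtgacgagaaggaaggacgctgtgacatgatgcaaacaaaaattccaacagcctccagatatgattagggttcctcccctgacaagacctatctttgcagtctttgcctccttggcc
Both contain the same 84-base stretch, their longest in common. The promoter of a further copy, Bcl2a1a, shares an 84-base stretch with that of Bcl2a1d and a 174-base stretch with that of Bcl2a1b. A GATC, which reads the same on both strands, occurred in 47.97% of the 32851 promoters of the same length. RefSeq entries were found for 9 of the 10 genes.

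The 8 libraries held 88703088 to 218945191 read pairs. Of the pairs with both ends on autosomes, 70.9 to 75.1% joined places on the same chromosome. Replicates differed by more than sampling noise in every group (chi-square per degree of freedom 1.21 to 4.53 over the start bins), so none was taken for a library deposited again. The second imminent division library stood apart: 3.74% of its read ends lay on the X chromosome against 2.39 to 2.84% in the other libraries, and 0.0490% on the Y chromosome against 0.0804 to 0.123%. These shares put the description of its mice as male in doubt, and the cause was not tested. Without it the members called at imminent division versus 10 h numbered 2 in place of 2 for compartments and 6 in place of 6 for insulation, and the other counts that rest on it are given below with and without it. All 8 B cell marker genes lay in the A compartment in every library, but so did all 6 T cell and all 4 myeloid markers, so the compartment does not check the cell type.

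In compartments, which separate open (A, score above 0) from closed (B, score below 0) chromatin, Bcl2a1b and Bcl2a1d stood apart from the other 8 genes. Those 8 lay deep in A in every library, with scores on the first principal component (PC1, at 100 kb) from 1.1 to 1.45. Bcl2a1b went from A at 3 and 10 h to B at 33 h, and Bcl2a1d stayed in A with a score that fell. At 100 kb the only rises that passed the test were those of Mcl1 and Bax in pre-S cells. With 200 kb bins more genes were called, as counted below.

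**Figure D1:**
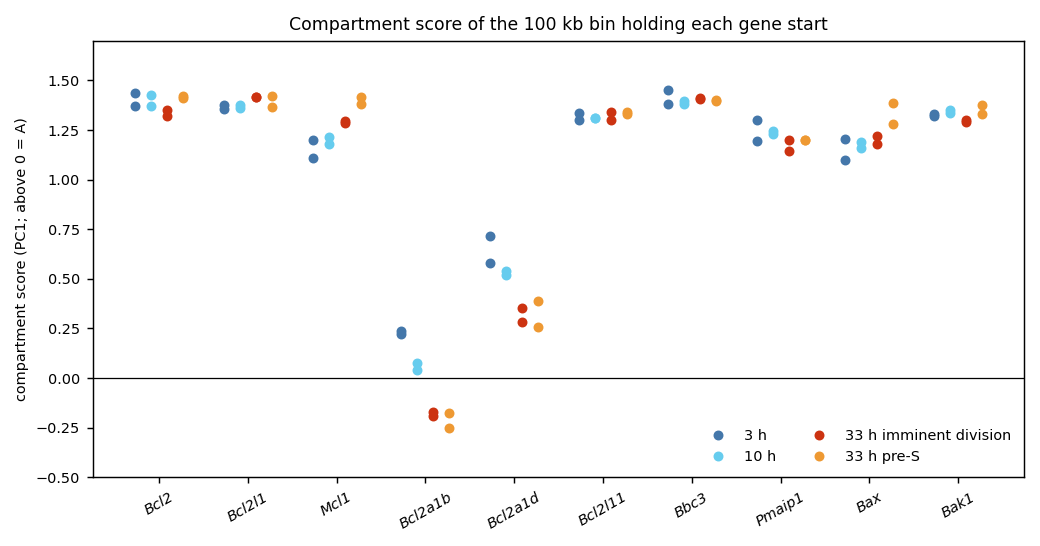
Compartment score (PC1, no unit; above 0 is the A compartment) of the 100 kb bin that holds each of the 10 gene starts, with 1 point per library and 2 libraries per group. Bcl2a1b crosses 0 between 10 h and 33 h, Bcl2a1d falls within A, and the other 8 genes sit between 1.1 and 1.45.

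The score of Bcl2a1b was 0.22 and 0.24 at 3 h, 0.07 and 0.04 at 10 h, then -0.17 and -0.19 at imminent division, and -0.18 and -0.25 in pre-S cells. The 10 h libraries lay below those of 3 h, and the late libraries, which overlapped each other, below both. The score fell by 0.17 ± 0.03 (SE) between 3 and 10 h (limma over 23791 autosomal bins, adjusted p = 0.00998), by 0.24 to imminent division (adjusted p = 0.000178) and by 0.27 to pre-S (adjusted p = 0.000222). The first of these rested on both 10 h libraries, since without either of them the adjusted p was 0.0527 or 0.0871. Over the genome such a change of sign was rare: 105 of the 23791 bins, 0.441%, were A in all 4 early libraries and B in all 4 late ones, and 0.151% went the other way. That share is over bins at any distance from 0, and Bcl2a1b was already near 0 at 10 h. It thus does not mark the fall as unusually large. A change of score was called at 29% of bins at imminent division and 23.6% in pre-S.

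The start of Bcl2a1b lies 1.06 kb from the end of its 50 kb bin (chr9:89149705-89200269), so most of the gene is in the next one (chr9:89200266-89249994, which also holds the start of Mthfs). An alternative added after seeing the data took that bin. The 100 kb bin that scores it is chr9:89200266-89300038. Its score was 0.72 and 0.71 at 3 h, 0.36 and 0.43 at 10 h, then 0.16 and 0.12 at imminent division and 0.19 and 0.12 in pre-S cells. It therefore fell at the same steps, by 0.31 (adjusted p = 0.000866), 0.26 (adjusted p = 0.000170) and 0.24 (adjusted p = 0.000495), but remained in A in all 8 libraries. The crossing into B thus applied to the 100 kb bin of the start and not to that of most of the gene. The next 100 kb bin, over Mthfs, was already B at 10 h. It went from 0.09 and 0.06 at 3 h to -0.41 and -0.32 at 10 h, then -0.63 and -0.66 in each late group.

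Bcl2a1d, whose start bin is chr9:88700031-88749992, scored 0.58 and 0.71 at 3 h, 0.54 and 0.52 at 10 h, then 0.28 and 0.35 at imminent division, and 0.39 and 0.26 in pre-S cells. The late libraries all lay below the early ones. The fall from 10 h was 0.21 ± 0.05 (SE) in either late group (adjusted p = 0.00793 and 0.0115), and it no longer passed in 2 of the 8 refits that left out a library for imminent division and in 3 of them for pre-S. Around Bcl2a1b, 15 of 41 bins within 2 Mb were A at 3 h, 13 at 10 h and 9 in each late group. Around Bcl2 16 of 41 were A in every group, and around Bcl2l11 and Bak1 all 41 were. Around Pmaip1 33 were A at 3 h, at 10 h and in pre-S, and 37 at imminent division.

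**Figure D2:**
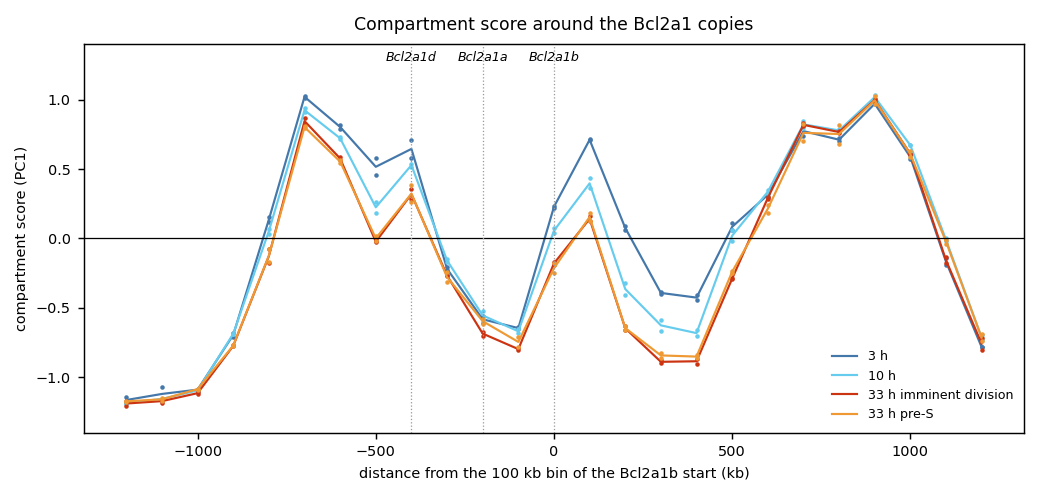
Compartment score (PC1) against distance in kb from the 100 kb bin of the Bcl2a1b start; lines are means of the 2 libraries of a group, points are libraries, and dotted lines mark the bins of the Bcl2a1 starts. The late groups run below the early ones at the bins of Bcl2a1d and Bcl2a1b and over the 400 kb beyond Bcl2a1b. They also do so from -800 to -500 kb, over other genes, so the fall is not confined to the Bcl2a1 starts. All groups meet at the A peak near 900 kb.

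Mcl1 scored 1.22 and 1.18 at 10 h and 1.38 and 1.42 in pre-S cells, a rise of 0.20 (adjusted p = 0.00161). The rise was not confined to that bin: the bin 600 kb before it went from 1.36 and 1.37 to 1.51 and 1.58. The bin 500 kb after it went from 1.19 and 1.16 to 1.37 and 1.47. Bax rose likewise from 1.19 and 1.16 to 1.279 and 1.386 (adjusted p = 0.0176), but without either 10 h library or without the second pre-S library this no longer passed. At imminent division both were at 1.18 to 1.295, and lower than in pre-S by 0.11 (Mcl1, adjusted p = 0.0416) and 0.13 (Bax, adjusted p = 0.0466). These differences between the late groups kept their call in only 4 and 3 of 11 alternatives. In all, 1 gene was called at 10 h versus 3 h, 2 at imminent division and 4 in pre-S versus 10 h, and 2 at imminent division versus pre-S. The shares called among all bins were 5.22%, 29%, 23.6% and 17.3%. Without the second imminent division library, neither Mcl1 nor Bax passed between the late groups (adjusted p = 0.132 and 0.220).

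The summed contacts of a start bin with all bins within 2 Mb count the read pairs that join a locus to its neighbourhood. They are not balanced for how well each bin is covered. From 10 h to 33 h the sums of Bcl2a1b, Bcl2a1d and Bbc3 fell in both late groups, those of Bax and Bak1 fell at imminent division, and no gene rose. Both late groups were set against the same 10 h libraries. Each value is a mean over many cells, so a contact made in fewer cells and a contact made less often in each cannot be told apart. The survival genes Bcl2, Bcl2l1 and Mcl1 and the death genes Bcl2l11 and Pmaip1 passed in no comparison with the loess offsets used here. Other scalings given below called Bcl2, Bcl2l1, Mcl1 and Bcl2l11 lower in both late groups. With offsets for bin coverage, the contacts of each bin with other chromosomes, Pmaip1 was called lower at imminent division (log2 -0.14, adjusted p = 0.0333). The 5 genes called at imminent division and the 3 in pre-S stood beside 44.3% and 37.3% of the 13260 start bins tested, so the share among these genes was near that of the genome. All of the calls here were falls, where the genome had 22% and 18.1% lower.

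For Bcl2a1b the normalised contact sum, in CPM (read pairs scaled to a common library size with the loess offsets), was 11.1 and 9.95 CPM at 3 h, 11 in both 10 h libraries, 7.55 and 7.98 at imminent division, and 8.13 and 8.06 in pre-S cells. Every late library lay below every early one. The sum fell by 29.5% at imminent division (log2 change -0.50 ± 0.05 SE, edgeR quasi-likelihood test, adjusted p = 2.83e-06) and by 26.5% in pre-S (adjusted p = 5.53e-05). In the next bin, which holds most of the gene, the log2 changes were -0.31 and -0.28 in place of -0.50 and -0.44, and both passed (adjusted p = 2.61e-05 and 0.000279). Only 570 to 1390 read pairs lay behind each value, against up to 5020 for Bcl2.

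The sum for Bcl2a1d went from 9.58 and 9.65 CPM at 10 h to 7.34 and 8.28 at imminent division and 7.81 and 8.45 in pre-S cells, and was 9.64 and 8.87 at 3 h. The late values again lay below the early ones. The sum fell by 18.7% at imminent division (adjusted p = 0.000687) and fell by 15.7% in pre-S (adjusted p = 0.00753), the second lost without the second 10 h or the first pre-S library (adjusted p = 0.0654 and 0.141). Both Bcl2a1 sums depended on how libraries were scaled. The loess offsets used here let the scaling vary with contact strength, and with a single factor per library (TMM) the log2 change of Bcl2a1b shrank to -0.22 and -0.14, the latter no longer called (adjusted p = 0.0540), and with DESeq2 neither was called (adjusted p = 0.0505 and 0.258). With TMM the change of Bcl2a1d came to -0.01 at imminent division and turned to 0.061 in pre-S, and bin coverage offsets also ended its pre-S call (log2 -0.11, adjusted p = 0.261). Coverage of the Bcl2a1b bin by contacts with other chromosomes was 10.7 to 12.5 CPM in the 8 libraries, the lowest of the 10 genes. Its start bin shares 11.26% of its 81-base words with that of Bcl2a1d, and the part of such shared sequence in these values was not tested.

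Bbc3 encodes Puma, which p53 induces after DNA damage. Its start bin (chr7:16300133-16349858) had 25.2 and 25.6 CPM at 10 h, then 22.8 and 21.7 at imminent division and 22.7 and 22.5 in pre-S cells, with 24.9 and 25.6 at 3 h. The late libraries lay apart from the early ones by more than any replicates differed. The sum fell by 12.5% (adjusted p = 0.000591) and 11.1% (adjusted p = 0.00376), and by more with TMM (log2 -0.28 and -0.25). With bin coverage offsets the changes were -0.11 and -0.10 and neither passed (adjusted p = 0.0912 and 0.159).

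Among the effectors, Bak1 (chr17:26999993-27050096) had 29.8 and 29.2 CPM at 10 h and 25.3 and 26.5 at imminent division, a fall of 12.2% (adjusted p = 0.000808). Its pre-S libraries lay between, at 27.1 and 28.1, and did not pass (adjusted p = 0.0783). The log2 change of Bak1 at imminent division was -0.19, and with bin coverage offsets it was -0.077 and no longer called (adjusted p = 0.214). With TMM it was -0.35, and Bak1 was then called in pre-S too (log2 -0.23, adjusted p = 0.00410), as it was with DESeq2 (adjusted p = 0.000115). Bax (chr7:45450150-45499811) fell by 7.51% at imminent division, from 25.1 and 25.4 to 23.7 and 23.1 (adjusted p = 0.0210). That call was lost without either 10 h library or without the second imminent division library (adjusted p = 0.0749 to 0.145), and with bin coverage offsets (adjusted p = 0.0663). In pre-S Bax did not pass, but it was called lower with TMM (adjusted p = 0.0181) and DESeq2 (adjusted p = 0.0120). The other 4 of the 5 calls passed without that library.

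Bcl2 had the highest sum of the 10 genes, higher than 98.7% of the 13260 start bins, and it was called in no comparison: 31.0 and 31.7 at 3 h, 31.5 and 32.4 at 10 h, then 31.9 and 31.5 at imminent division, and 32.4 and 31.0 CPM in pre-S cells. The groups overlapped throughout. The sums of Bcl2l11, Mcl1, Bcl2l1 and Pmaip1 averaged between 18.4 and 30.4 CPM in each group, and their log2 changes from 10 h ran from -0.08 to 0.03. With TMM, however, 8 of the 10 genes were called lower at imminent division, beside 56% of all start bins called and 27.8% lower, and 7 in pre-S, beside 49.6% and 23.6%. Bcl2, Bcl2l1, Mcl1 and Bcl2l11 were among them in both late groups (Bcl2 -0.20 and -0.17), and DESeq2 called the same 4 lower in both (Bcl2 adjusted p = 1.75e-05 and 0.000617). The statement that Bcl2 held its sum is therefore one about loess scaling. Between 3 and 10 h no gene was called by edgeR and none had an unadjusted p under 0.05, nor was any called by DESeq2, which gave no adjusted p for the Bcl2a1 genes, beside 0.0679% of all start bins. Between the late groups edgeR with loess offsets and DESeq2 called none (3.91% of all), with 1 unadjusted p under 0.05, but with bin coverage offsets Bcl2a1d was called lower at imminent division (log2 -0.22, adjusted p = 0.0217).

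**Figure D3:**
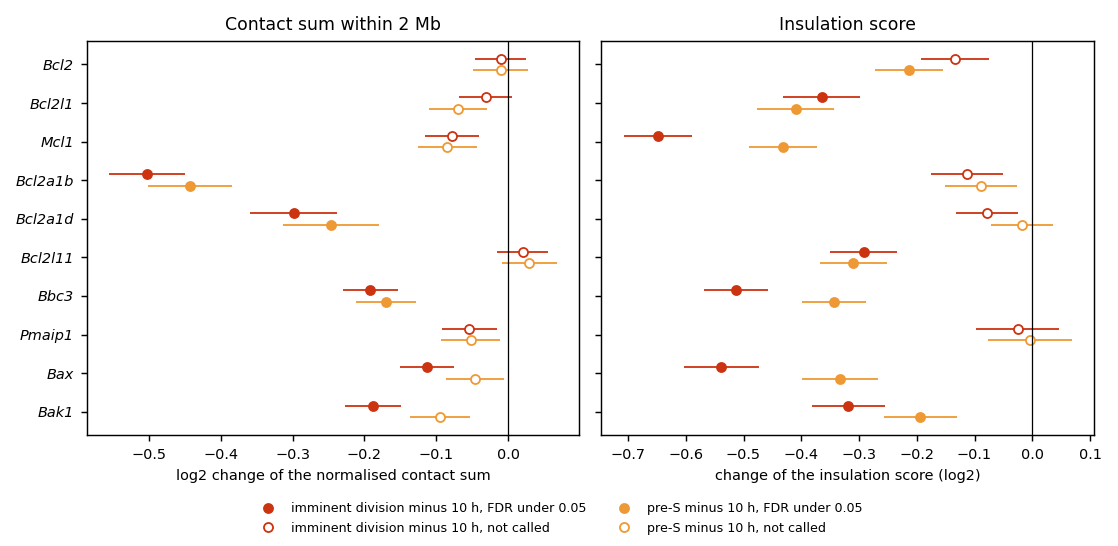
Change from 10 h to each 33 h group in the log2 contact sum within 2 Mb with loess offsets (left) and in the log2 insulation score (right) of the 10 gene starts; bars are standard errors of the fit on 8 libraries, and filled points passed an FDR of 0.05. The filled points all lie below 0, with Bcl2a1b farthest left among the sums and Mcl1 among the insulation scores.

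Promoter interactivity counts only the same-chromosome pairs that stand above the curve of contact against distance, at any distance. It was tested for 9 of the genes, because the 103 to 216 such pairs of Bcl2a1b, scaled by library size, fell short of the minimum count of 200. At imminent division Pmaip1 and Bak1 were lower than at 10 h, beside 49.9% of 12449 start bins called (25.2% lower). In pre-S cells Bcl2l1, Bcl2a1d and Bak1 were lower, beside 35.8% (17.1% lower). With bin coverage offsets Bcl2l11 was called lower in pre-S (log2 -0.18 in place of -0.0046, adjusted p = 0.00425). Bak1 was still called there, but Bcl2l1 and Bcl2a1d were not (adjusted p = 0.152 and 0.0502). At imminent division the same offsets called Bcl2a1d lower (log2 -0.21, adjusted p = 0.0463). No gene was called between 3 and 10 h by edgeR with loess offsets or by DESeq2, where 1 had an unadjusted p under 0.05 and 0.185% of all were called. With bin coverage offsets Bcl2a1d was called higher there (log2 0.34, adjusted p = 0.0380).

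Pmaip1 encodes Noxa, a BH3-only protein that targets Mcl1. The interactivity of its start bin (chr18:66450031-66500001) was 23.1 and 24.0 CPM at 3 h, 22.1 and 22.6 at 10 h, then 20.4 and 20.6 at imminent division, and 22.8 and 23.3 in pre-S cells. The imminent division libraries were thus the lowest. From 10 h the value fell by 8.30% (adjusted p = 0.00606), and the difference from pre-S was -10.7% (adjusted p = 0.00441, the only gene called in that comparison beside 14.4% of all, 8.27% lower). The first did not pass without the second 10 h library (adjusted p = 0.0997), and the second neither without the second pre-S library (adjusted p = 0.0646) nor with DESeq2 (adjusted p = 0.104). When every same-chromosome pair was summed without the distance filter, the log2 change from 10 h was 0.02 in place of -0.13.

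Bak1 interactivity went from 24.2 and 23.7 CPM at 10 h to 20.2 and 21.4 at imminent division and 21.4 and 22.5 in pre-S cells. It fell by 12.9% at imminent division (adjusted p = 6.55e-05) and fell by 8.42% in pre-S (adjusted p = 0.0195). With offsets for bin coverage the first was no longer called, and the second was lost in 4 of 14 alternatives. Bcl2l1, which encodes Bcl-xL, went from 22.7 and 22.3 at 10 h to 20.84 and 20.97 in pre-S cells (adjusted p = 0.0439), and this passed in 7 of 14 alternatives. For Bcl2a1d the pre-S fall was 21.7% (adjusted p = 0.00531) on values of 2.35 to 3.21 CPM, and with TMM its log2 change was -0.04 in place of -0.35. Without the second imminent division library 3 genes in place of 2 were called at imminent division versus 10 h.

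Bcl2 and Bbc3 had the highest interactivities, above those of 97.9% of start bins. Bcl2 showed 30.2 to 32.1 CPM in the 8 libraries and neither gene was called in any comparison with loess offsets. In pre-S versus 10 h, however, the log2 change of Bcl2 went from -0.04 to -0.12 with TMM (adjusted p = 0.0168) and with DESeq2 (adjusted p = 0.0474), and Bbc3 was called lower by both as well (adjusted p = 0.00608 and 0.0186). The start bins on other chromosomes whose interactivity varied most like that of Bcl2 were those of Acp1 and Sh3yl1 (Pearson r = 0.90 over 8 libraries), Uvssa (r = 0.88) and Arid1b (r = 0.87), the highest of 11603 bins compared. These correlations share the libraries and their depth and are given as a description only.

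Insulation measures the contacts that cross a bin, here as the log2 of the mean count between the 500 kb on one side and the 500 kb on the other, relative to the chromosome. A low score marks a border between topologically associating domains (TADs) and a high score the interior of one. From 10 h to 33 h the score fell at 6 of the 10 gene starts at imminent division and at 7 in pre-S, and rose at none. Over all 46858 bins 64.4% and 57.6% were called (20.7% and 20.4% lower), with median changes of 0.12 and 0.06 against -0.31 and -0.26 for the 10 genes. All bins include those without a gene start. For 37 tested of the 38 other apoptosis genes described below the medians were -0.20 and -0.19, so falls were not particular to the 10 genes. At 10 h versus 3 h limma called no gene and no bin of the genome (0%), and no gene had an unadjusted p under 0.05. The boundary ratio below, tested by edgeR, called none of them there either (0.389% of all regions).

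Mcl1 lies well inside a TAD, its start bin (chr3:95649919-95699944) scoring above 99.6% of all bins. Its score was 1.92 and 1.77 at 3 h, 1.88 and 1.90 at 10 h, then 1.24 and 1.24 at imminent division, and 1.44 and 1.47 in pre-S cells. It fell by 0.65 ± 0.06 (SE) at imminent division (limma, adjusted p = 0.000153) and by 0.43 in pre-S (adjusted p = 0.00187), the largest fall of the 10 genes in either late group before quantile normalisation. Imminent division was lower than pre-S by 0.22 (adjusted p = 0.0483, 9.93% of bins called), which no longer passed without the second imminent division library (adjusted p = 0.150). This difference between the late groups kept its call in only 3 of 12 alternatives. Quantile normalisation of the scores, which forces the same spread on every library, reduced the falls from 10 h to 0.31 and 0.13, the latter no longer called. The largest falls were then those of Bcl2a1b at imminent division and Bcl2l1 in pre-S.

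The effector Bax and the BH3-only Bbc3, both on chromosome 7, moved in much the same way. Bax scored 1.12 and 1.17 at 10 h, then 0.59 and 0.63 at imminent division, and 0.78 and 0.84 in pre-S cells. Bbc3 scored 1.21 and 1.16, then 0.65 and 0.69, and 0.81 and 0.87. The falls were 0.54 and 0.51 at imminent division (adjusted p = 0.000307 and 0.000214) and 0.33 and 0.34 in pre-S (adjusted p = 0.00355 and 0.00232), with no overlap between early and late libraries. Quantile normalisation reduced them to 0.34 and 0.30, and to 0.15 and 0.16 in pre-S, all still called.

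Bcl2l1 (chr2:152799583-152850027) fell by 0.36 and 0.41 from 0.50 and 0.56 at 10 h (adjusted p = 0.00175 and 0.00237). Bak1 fell by 0.32 and 0.19 (adjusted p = 0.00249 and 0.0254), the second of which was lost in 5 of 12 alternatives. Bcl2l11 (chr2:128100309-128150394) had the highest mean score of the 10 genes over the 8 libraries, above 99.8% of bins, although Mcl1 had the higher mean at 3 h and at 10 h. Bcl2l11 scored 1.89 and 1.87 at 10 h, then 1.52 and 1.65 at imminent division and 1.57 and 1.56 in pre-S. Its falls of 0.29 and 0.31 (adjusted p = 0.00254 and 0.00314) turned to changes of 0.12 and 0.014 under quantile normalisation, so no direction can be given for Bcl2l11. The Bcl2a1 starts scored low throughout, Bcl2a1b from -1.003 to -0.734 and Bcl2a1d from -1.38 to -1.25, below which lay 11.7% and 3.59% of bins, and neither was called. Under quantile normalisation, however, Bcl2a1b was called lower in both late groups (-0.44 and -0.31, adjusted p = 0.000386 and 0.00248) and Bcl2a1d at imminent division (-0.41, adjusted p = 0.000387). The bin of the Bcl2a1b gene body fell by 0.17 at imminent division (adjusted p = 0.0196) and by 0.14 in pre-S (adjusted p = 0.0451). Pmaip1 scored -0.01 to 0.22 and was not called. Under quantile normalisation 9 genes were called at imminent division, 8 of them lower, beside 43.2% of all bins (21.2% lower), and 5 in pre-S, all lower, beside 47.1% (23% lower).

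Bcl2 sits beside a border. The insulation score of its start bin (chr1:106699307-106749917) was 0.26 and 0.14 at 3 h and 0.07 in both 10 h libraries. It was -0.07 and -0.06 at imminent division and -0.18 and -0.10 in pre-S cells. The fall of 0.21 from 10 h to pre-S passed (adjusted p = 0.0125) but was lost without either 10 h library or the first pre-S library. Under quantile normalisation limma called Bcl2 lower at imminent division (-0.18, adjusted p = 0.0170) and in pre-S (-0.26, adjusted p = 0.00362). Its gene lies on the minus strand (chr1:106538178-106714274, 176 kb over 5 bins), and the insulation score had a local minimum 150 kb beyond its start in all 4 groups. Of its contacts within 2 Mb, 82.4 to 84.0% ran to lower coordinates, over the gene body, at 3 and 10 h, and 77.8 to 81.6% in the late libraries. The boundary ratio of the 100 kb region around the start, the log2 of upstream over downstream counts within 1 Mb, was 2.79 and 2.69 at 10 h, then 1.97 and 2.13 at imminent division and 2.38 and 2.36 in pre-S cells. All late libraries lay below all early ones. The asymmetry fell by 0.68 at imminent division (edgeR glmTreat, adjusted p = 1.33e-14, 18.2% of regions called) and by 0.36 in pre-S (adjusted p = 0.00720, 4.82% called). Imminent division lay 0.31 below pre-S (adjusted p = 0.0168, 5.53% called). In refits without 1 library, added after seeing the data, the first passed in all 8. The second was lost without the first 10 h library or either pre-S library (adjusted p = 0.0753, 0.0533 and 0.0541), and the third without the first imminent division library or either pre-S library (adjusted p = 0.244, 0.141 and 0.0719). The ratio also weakened at Bcl2l1, by 0.34 in both late groups (lost in pre-S without the second 10 h or the second pre-S library, adjusted p = 0.166 and 0.0528), and strengthened at Bcl2a1d in pre-S (0.40, adjusted p = 0.0464). The last was lost without any one of the 10 h or pre-S libraries (adjusted p = 0.0634 to 0.217).

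**Figure D4:**
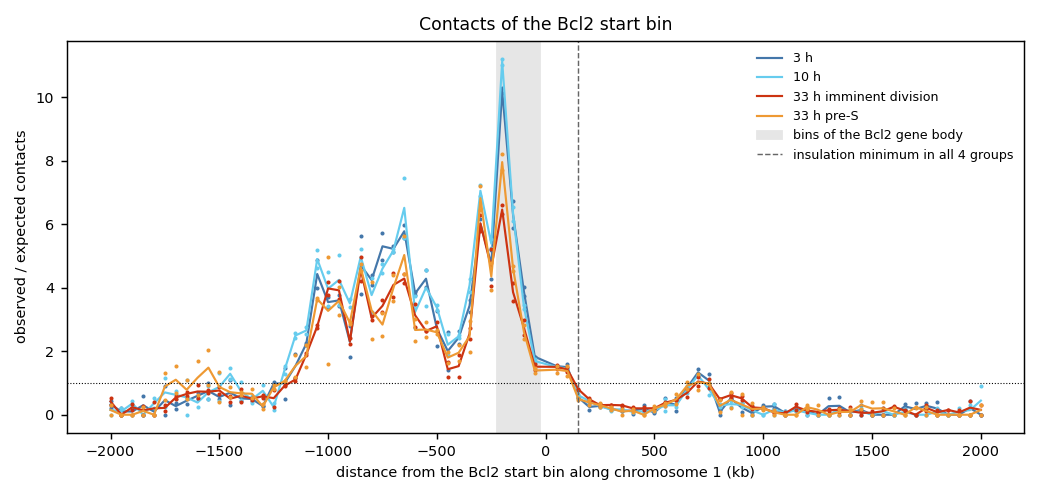
Contacts of the Bcl2 start bin over the chromosome mean at the same distance (observed over expected, vertical axis) against distance in kb along chromosome 1; lines are means of the 2 libraries of each group, points are libraries, grey marks the gene body and the dashed line the insulation minimum at 150 kb. The profile is high on the gene side, highest at -200 kb where the 3 h and 10 h lines reach 10.2 and 11.1, and near 0 past the minimum apart from a small rise near 700 kb.

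The strongest partner of any of the 10 gene starts at 200 kb or more was the other end of Bcl2 itself. The start bin and the bin 200 kb away that holds the 3′ end of the gene shared 272 and 536 read pairs in the 3 h libraries, 428 and 540 in those of 10 h, 467 and 578 in those of imminent division and 329 and 264 in pre-S cells. Over the chromosome mean at that distance these were 10.3 and 10.1, 11.2 and 11.02, 6.33 and 6.59, and 8.20 and 7.71. The late libraries all lay below the early ones, and the change from 3 to 10 h did not pass (log2 0.21, FDR 0.743). In the test, whose offsets follow contact strength, the change was smaller: log2 -0.28 ± 0.08 (SE) at imminent division (edgeR, FDR 0.0330), and -0.27 in pre-S (FDR 0.132). With offsets fitted within classes of distance it was -0.096 at imminent division and no longer called. The next bin, at 150 kb, went from 6.33 to 3.86 over expected at imminent division (log2 -0.31, FDR 0.0372), while those at 100 and 50 kb did not pass (FDR 0.969 and 0.861).

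Partner bins were then tested one by one as differential interactions (DIs). Of the at most 80 partner bins of each start, 24 (Bbc3) to 74 (Bak1) had enough contacts, 440 pairs in all. At imminent division versus 10 h 19 of the 440 were DIs (4.32%), every one weaker, beside 2.28% of the 1237205 pairs within 2 Mb in the genome (1.55% weaker). In pre-S versus 10 h 6 were DIs (1.36%), again every one weaker, beside 0.674% (0.277% weaker). The median log2 change over the 440 pairs was -0.26 in both, against 0.03 and 0.01 over all pairs, and 332 and 335 of them lay below 0. Neighbouring bins and the shared 10 h libraries tie these pairs together, so they are not separate observations.

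The count at imminent division depended on single libraries. It was 4 without 10 h replicate 1, 1 without 10 h replicate 2, 3 without the first imminent division library and 8 without the second, of which 5 were among the 19. In pre-S it was 0 without either 10 h library or either pre-S library. Between 3 and 10 h edgeR and DESeq2 called no pair (0.000647% of all), with 37 of the 440 at an unadjusted p under 0.05, 32 of them stronger at 10 h. The share of all pairs at that unadjusted p is not given here, so the 37 cannot be set against the genome. For contact sums 1590 of 13260 start bins reached it in that comparison. Imminent division versus pre-S gave 1 weaker pair (0.227%, beside 0.414%), and none by DESeq2 or without the second imminent division library.

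**Figure D5:**
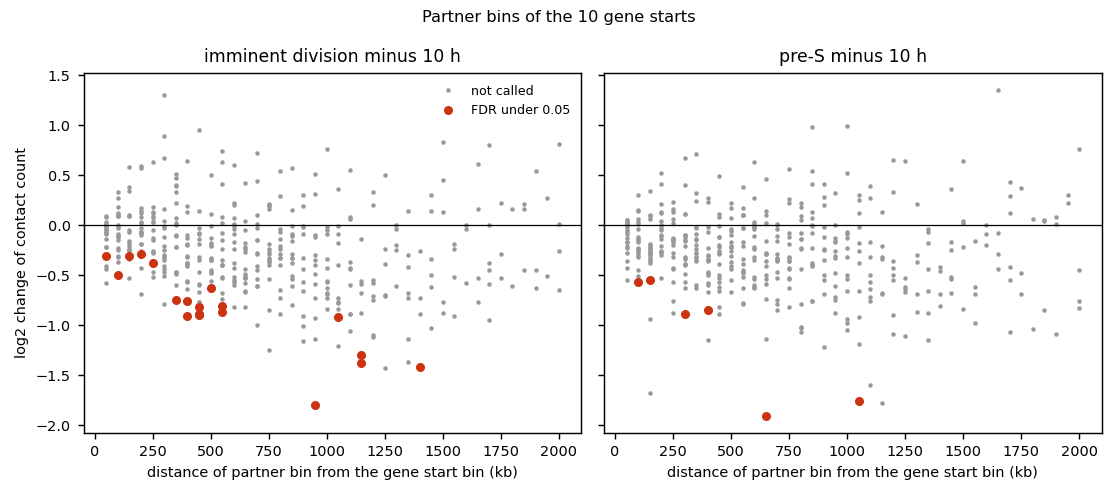
Log2 change of the contact count of the 440 tested pairs against the distance in kb between the gene start bin and its partner bin, for imminent division (left) and pre-S (right) versus 10 h; red points are DIs at an FDR of 0.05. All 19 and 6 red points lie below 0, and most grey points do as well.

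Bcl2a1b and Bcl2a1d shared partners. Both had as strongest partner at 3 h the same bin over Tmed3 (chr9:89650002-89699935), at 5.88 and 2.81 over expected. For Bcl2a1b this was 5.98 and 5.78 at 3 h, 5.26 and 5.64 at 10 h, then 3.33 and 3.83 at imminent division and 5.79 and 4.69 in pre-S cells. Imminent division was lowest but did not pass (log2 -0.47, FDR 0.0586). Both also contacted the bin of the Morf4l1 start (chr9:90099893-90150047), and there both were DIs at imminent division. Counts were low: Bcl2a1b had 5 and 16 read pairs in the 3 h libraries, 22 and 18 in those of 10 h, 13 and 8 in those of imminent division and 23 and 9 in pre-S cells.

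The log2 changes to imminent division were -1.80 ± 0.39 (SE, FDR 0.00207) for Bcl2a1b and -1.42 ± 0.40 (FDR 0.0352) for Bcl2a1d. Without the second imminent division library the first was -1.39 and not called (FDR 0.0930). The start bins of the copies, 450 kb apart, shared 6 to 14 read pairs per library, 0.28 to 0.72 of the chromosome mean at that distance. These ratios are not balanced for bin coverage. Coverage by other chromosomes was 10.7 to 12.5 CPM at Bcl2a1b and 14.2 to 15.6 at Bcl2a1d, the lowest of the 10 genes. The part of coverage in the ratios was not tested.

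Bax had 4 DIs at imminent division. The one with the smallest p was 400 kb away, in the bin of the Nosip, Prr12, Prrg2 and Rcn3 starts (chr7:45049973-45100211), with 56 and 73 read pairs at 10 h, then 58 and 64 at imminent division and 39 and 21 in pre-S. Over expected this was a mean of 2.78, 1.51 and 1.58. It weakened in both late groups (log2 -0.91, FDR 0.00231, and -0.85, FDR 0.0473). This pair and the neighbouring one at 450 kb on the same side also passed without the second imminent division library.

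Bak1 had the most DIs, 6 at imminent division, spread from 550 kb on one side to 1150 kb on the other. The smallest p was at the Zfp523 start, 1150 kb away, with 18 and 23 pairs at 10 h and 12 and 17 at imminent division (log2 -1.38, FDR 0.0153). The mean over expected there was 1.46 at 3 h, 2.62 at 10 h and 1.16 at imminent division. The strongest Bak1 partner at 3 h was the Grm4 start at 500 kb. It stood at 3.59 and 2.58 over expected at 3 h, 4.77 and 3.58 at 10 h, and 2.34 and 2.79 at imminent division. The fall from 10 h passed (log2 -0.63, FDR 0.0265), but the imminent division libraries overlapped those of 3 h. The pre-S libraries, at 3.13 and 3.97, overlapped those of 10 h. None of the 6 was called without the second imminent division library.

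For the BH3-only genes, Bcl2l11 weakened with its strongest partner, a bin without a protein-coding gene 250 kb beyond its start. The values over expected were 5.66 and 4.86 at 3 h, 5.65 and 5.19 at 10 h, then 2.96 and 3.63 at imminent division and 4.44 and 4.33 in pre-S cells. Imminent division lay lowest (log2 -0.38, FDR 0.0404) and pre-S between (FDR 0.551). Bbc3 weakened with the Ehd2 start at 350 kb at imminent division (log2 -0.75, FDR 0.00928), and in pre-S with the C5ar2 and Dhx34 starts at 100 kb (log2 -0.57, FDR 0.0137). Pmaip1, with 69 pairs tested, had no DI in any comparison. Its strongest partner at 3 h was the Fech start at 2000 kb, which varied between the replicates (6.64 and 3.36 over expected).

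Among the survival genes, Bcl2 had 4 DIs at imminent division, the smallest p at the Pign and Relch starts 1050 kb away on the gene side. That pair had 32 and 47 read pairs at 10 h and 36 and 40 at imminent division, or 4.63 and 5.17 over expected against 2.84 and 2.73 (log2 -0.92, FDR 0.0191). Offsets within classes of distance reduced this to -0.53, no longer called. Mcl1 had none at imminent division and 3 in pre-S, the smallest p with a bin without a protein-coding gene at 650 kb, which held 12 and 22 read pairs at 10 h and 4 and 4 in pre-S (log2 -1.91, FDR 0.0432). Bcl2l1 had no DI in any comparison. Its strongest partner at 3 h, over Cbfa2t2 at 1650 kb, had only 4 to 18 read pairs.

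A list of 38 other apoptosis genes, holding further Bcl2 relatives, the mitochondrial pathway and the death receptors with their regulators, gave the surroundings of these values. At imminent division versus 10 h the contact sum rose at 6 and fell at 12 of the 38 (47.4%, beside 44.3% of all start bins), and in pre-S it rose at 5 and fell at 9 (36.8%, beside 37.3%). Interactivity rose at 8 and fell at 9 of 37 tested at imminent division (45.9%, beside 49.9%), and in pre-S it rose at 3 and fell at 5 (21.6%, beside 35.8%). Insulation rose at 2 and fell at 21 of 37 at imminent division, where 64.4% of all bins were called. In pre-S it rose at 0 and fell at 23 of 37, where 57.6% of all bins were called. Of 1876 pairs 6 were stronger and 82 weaker DIs at imminent division (4.69%, beside 2.28% of all pairs), and 2 were stronger and 4 weaker in pre-S (0.320%, beside 0.674%). Among those with the smallest p for interactivity were Fadd, the adaptor of death receptors, which fell by 25.0% (edgeR, adjusted p = 2.14e-10), and the initiator caspase Casp8, which rose by 11.8% (adjusted p = 0.000540). In pre-S Fadd fell by 22.3% (adjusted p = 1.26e-07), while Casp8 did not pass (adjusted p = 0.0843).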

How the data were processed

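The deposited files hold, for each of 8 libraries, raw counts of read pairs in pairs of 50 kb bins as a symmetric matrix without balancing. The authors made these counts with diffHic on mm10 after trimming, bowtie2 alignment, marking of duplicates and removal of dangling ends and long fragments. The matrices name no coordinates, so the 53357 bins were laid out again by cutting the 66 GRCm38 sequences at MboI sites. Of the 48088 autosomal bins 47340 were kept, leaving out those with over 10% undetermined sequence or with interchromosomal coverage over 4-fold from the median. Groups came from the labels, all 4 groups entered each fit as a one-way layout, and p-values were adjusted by Benjamini-Hochberg over all features at an FDR of 0.05.

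Contact sums and promoter interactivity of 13305 start bins (minimum count 200, loess offsets, interactivity from pairs above the distance curve plus 2 mean absolute residuals) and DIs (summed count of at least 10, over 4-fold the interchromosomal background, loess offsets split at 1.5 Mb, trended dispersion) were tested with edgeR 4.0.16 quasi-likelihood F tests in R 4.3.3. Compartment and insulation scores were tested with limma 3.58.1, and boundary ratios with glmTreat at a fold of 1.1. DESeq2 1.42.0 was an alternative. Features were computed in Python 3.11.15 with numpy 2.4.6 and pandas 2.3.3. The edgeR fits of start bin sums and of bin pairs and the limma fit of scores were also run on simulated data. Promoter interactivity, the boundary ratio and DESeq2 were not. Depth was 88703088 to 218945191 read pairs per library. Read pairs carry no molecular identifiers and are not independent molecules.

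The 10 genes and the gene lists were chosen with earlier results of these data known. All 10 genes are named, with their called partner bin of smallest p in each comparison, their strongest partner at 200 kb or more at 3 h, the 3 other apoptosis genes with the smallest p for interactivity (1 of them not reported here) and the 3 bins most like Bcl2. The bins of the Bcl2 gene body and the Bcl2a1b body bin were chosen after their values were seen. Alternatives were other scalings, filters, windows and tests, a replicate block and leaving out each library. The ENCODE excluded regions were not used here.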

Additional observations from a re-analysis of the deposited data

Results flagged for a closer look

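In 6 results the late groups differed from each other in a direct test, imminent division minus pre-S with edgeR for counts and limma for scores. They were the promoter interactivity of Pmaip1 (log2 -0.16, adjusted p = 0.00441), the compartment scores of Mcl1 (-0.11, adjusted p = 0.0416) and Bax (-0.13, adjusted p = 0.0466), the insulation score of Mcl1 (-0.22, adjusted p = 0.0483), the contact of Bcl2a1b with the bin of the Morf4l1 start at 950 kb (log2 -1.64, FDR 0.0312) and the boundary ratio at Bcl2 (log2 -0.313, edgeR glmTreat, FDR 0.0168). All 6 were lower at imminent division. The compartment calls were kept in 4 of 11 alternatives for Mcl1 and 3 of 11 for Bax, and the insulation call of Mcl1 in 3 of 12. Those of Pmaip1 and the Bcl2a1b contact were kept in 11 and 10 of 14, and that of Bcl2 in 5 of 8. Strain, reporter and sort gate cannot be told apart from the stage of the cell cycle in this comparison, and the second imminent division library stands apart in its share of X and Y reads. Without that library the Mcl1, Bax and Bcl2a1b results no longer passed (adjusted p = 0.132, 0.220, 0.150 and 0.422), while those of Pmaip1 and Bcl2 did (adjusted p = 0.0196 and 0.00243).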

How the results depend on the processing

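Of 810 recomputations of the 63 single values that were called, 579 kept their direction and their call, 226 kept only their direction and 5 turned. The turned ones were the contact sum of Bcl2a1d in pre-S versus 10 h (0.0606 with TMM and 0.061 with DESeq2), the interactivity of Pmaip1 at imminent division without the interaction filter (0.021) and the insulation of Bcl2l11 under quantile normalisation (0.12 and 0.014). Values not called at first were not counted here. Among them the contact sum of Bcl2l11 turned from 0.02 to -0.16 at imminent division and from 0.03 to -0.12 in pre-S with TMM, and was then called (adjusted p = 0.00567 and 0.0277), and its interactivity at imminent division from 0.013 to -0.10 with bin coverage (adjusted p = 0.0689). Counts below are of genes or pairs called, given in the order imminent division against 10 h, then pre-S against 10 h, then both late groups against each other.

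Contact sums called 5, 3 and 0 genes, against 8 and 7 with TMM, 3, 1 and 1 with bin coverage, and 7 in pre-S with DESeq2. Of all 13260 start bins, bin coverage called 2431 higher and 2383 lower at imminent division, and 1531 and 1535 in pre-S. Between the late groups it called 761 higher and 808 lower. DESeq2 called 2965 higher and 3073 lower in pre-S. Interactivity called 2, 3 and 1, against 1 and 3 in the first and last comparison without the interaction filter, 1 in pre-S with 3 residuals, 0 in the last with DESeq2, and 1 at 10 h versus 3 h with bin coverage. Of all 12449 start bins, DESeq2 called 345 higher and 730 lower in the last comparison. Bin coverage called 166 higher and 117 lower at 10 h versus 3 h. The genome shares for the other filters are not given here. Compartments called 2, 4 and 2, against 4 and 7 with 200 kb bins (and 2 in place of 1 at 10 h versus 3 h), and 4 and 0 in the first and last with quantile normalisation. The shares of all bins called in these settings are not given here, so these counts cannot be set against the genome. Insulation called 6, 7 and 1, against 2 and 3 as the boundary ratio, and in the last comparison 0 with a square of 5 or 20 bins and 4 with quantile normalisation. The boundary ratio is another measure and did not call the same genes: at imminent division it called Bcl2, which the score did not. At Bcl2l1 in both late groups and at Bcl2 in pre-S the score fell, toward a border, while the ratio weakened, away from one. DIs numbered 19, 6 and 1, against 45 and 16 with TMM, 10 and 1 with distance classes, 5, 1 and 0 at 2-fold background, 2 in pre-S with bin coverage, and 22, 2 and 0 with DESeq2. All member DIs were weaker under every setting run, but several settings also called more weaker than stronger pairs in the genome. At imminent division TMM called 17999 of 1237205 pairs within 2 Mb stronger and 32643 weaker. Distance classes called 6394 and 9574 there, and DESeq2 44 and 8468. In pre-S TMM gave 3098 and 7710, distance classes 1412 and 1624, DESeq2 38 and 717, and bin coverage 3004 and 5286. At 2-fold background the genome had 2723 stronger and 7980 weaker of 1682383 at imminent division, and 2009 and 1232 in pre-S. The causes were not tested.

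Leaving out each library in turn gave 4 to 5, 2 to 4 and 0 to 0 genes for the sums, 1 to 3, 0 to 3 and 0 to 2 for interactivity, 1 to 3, 2 to 4 and 0 to 2 for compartments (0 to 1 at 10 h versus 3 h), 6 to 7, 5 to 7 and 0 to 3 for insulation, and 1 to 24, 0 to 8 and 0 to 1 DIs. With a library gone its group's other library is assumed to vary like the rest.

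Libraries with the same replicate number did not deviate together (correlations of their deviations -0.251 to 0.0923), so the numbers do not pair them. The replicate block called 17, 4 and 1 DIs, 1 gene by compartment and 0 by insulation at imminent division versus pre-S, and changed no other count by over 1.5 times. Depth limits the DIs of low count: those of the Bcl2a1 genes rest on 5 to 23 read pairs per library, and single ones of Mcl1, Bcl2 and Bak1 on as few as 4, 5 and 9.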
